A study of Rattus norvegicus with 8 samples.

Results

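The genes described here are 41 genes of fatty acid oxidation and of the peroxisome, chosen by name for their place in these pathways, among 35534 gene names on the array. All 41 had at least 1 probe, 40 of them matched by accession, and 55 probes stood for them in all. RNA came from 8 kidney grafts of rats collected 24 h after transplantation, in 4 groups of 2 biological replicates. Every graft was taken from a male Dark Agouti donor (RT1a), cooled with University of Wisconsin solution, stored cold (4 °C) over 25 min and placed into a male Lewis recipient (RT1l) that had lost both of its own kidneys, so all 4 groups share the major histocompatibility mismatch, the surgery and the cold storage. The rats weighed 120 to 250 g, and their age is not given. In the high-difference group the donor was 20 to 50% lighter than the recipient, relative to the recipient's weight. In the low-difference group it was 0 to 20% lighter. The other 2 groups were high-difference grafts whose recipients got 1 intravenous injection directly after surgery, either 500 µg of an antibody that neutralises the interleukin-6 receptor (anti-IL6R group) or 15 mg/kg of the glucocorticoid prednisolone. The study's question was how a weight difference affects the early graft and whether interleukin-6 signalling takes part. No graft without transplantation and no graft between rats of the same strain was analysed here, so every difference is a difference between allografts.

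Cells burn fatty acids in 2 places. Mitochondria take up long-chain fatty acids through the carnitine shuttle and shorten them by repeated rounds of dehydrogenation, hydration, oxidation and thiolytic cleavage, passing electrons to the respiratory chain through the electron transfer flavoprotein. Peroxisomes shorten very long and branched chains, release hydrogen peroxide that catalase removes, and hand the products on. The proximal tubule of the kidney relies on this oxidation for most of its energy, and the nuclear receptor PPAR alpha, with its coactivator PGC-1 alpha, switches many of the genes on.

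A level is the log2 signal of a gene's probe relative to the 75th percentile of its array, so 0 is that percentile's signal and a step of 1 means a signal 2 times as high. Levels were compared between groups of the same probe and not between probes. Of the 41 genes, 40 were tested. Hadhb was left out because its spot was flagged as an outlier on the second anti-IL6R array. On all 8 arrays 37 of the 41 were well above background; Pdk4 was so on 6 arrays, Pex5 on 7 and Fabp1 on 4. No probe of theirs was saturated.

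The tissue carried kidney markers on every array, since all 19 proximal tubule markers and all 10 distal nephron markers were well above background on all 8. Between 64.5% and 74.0% of gene spots were well above background on an array, least on the second prednisolone array and next on both untreated high-difference arrays. The 4 untreated grafts were hybridised on slide 1 and the 4 treated grafts on slide 2, so treatment and slide cannot be told apart, whereas high and low difference, and the pair of treatments, were each compared within a slide. No gene of the 24460 tested passed an adjusted p of 0.05 in any of the 6 comparisons in limma (0.0% called in each), so the values below are given without a call. At an unadjusted p under 0.05 limma gave 3588 genes in high minus low, 4332 in anti-IL6R minus high and 2893 in prednisolone minus high.

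PPAR alpha is known to bind, with its partner RXR, elements built from copies of the letters AGGTCA set 1 base apart. Promoter sequences of 37 of the 41 genes were matched in RefSeq's GRCr8 assembly; those of Ech1, Acadl, Decr1 and Acaa2 were not matched. In the 250 bases before the gene start, read on both strands, the full repeat AGGTCANAGGTCA was in 0 of the 37 and in 0.0508% of 33469 promoters. The looser form AGGNCANAGGNCA was found in Fabp1 alone of the 37, against 0.368% of all promoters. The single copy AGGTCA, which overlaps both longer forms, was in Acadvl, Amacr, Cat, Eci1, Fabp1 and Hsd17b4, 6 of the 37, against 14.1% of all promoters. Of the 3 promoters below, those of Amacr and Cat belong to genes whose untreated groups did not overlap, and that of Fabp1, a dim gene, is shown because it alone held the looser repeat; capitals mark the match, which begins 201 bases before the start in Amacr (chr2:61673085-61673334, plus strand), 169 bases before it in Cat (chr3:110329527-110329776, minus strand) and 77 bases before it in Fabp1 (chr4:104749090-104749339, plus strand), where it is the looser repeat read from the opposite strand. In Amacr and Cat high difference lay below low difference. The promoter of Eci1, not shown, also held the single copy, and its untreated groups did not overlap either, with high difference above low difference. A match describes these letters only, and binding was not measured.
Amacr: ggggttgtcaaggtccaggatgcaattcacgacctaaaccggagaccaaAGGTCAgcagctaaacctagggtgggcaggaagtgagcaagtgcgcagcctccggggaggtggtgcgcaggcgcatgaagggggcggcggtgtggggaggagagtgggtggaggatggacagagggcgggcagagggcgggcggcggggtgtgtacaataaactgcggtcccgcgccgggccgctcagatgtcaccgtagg
Cat: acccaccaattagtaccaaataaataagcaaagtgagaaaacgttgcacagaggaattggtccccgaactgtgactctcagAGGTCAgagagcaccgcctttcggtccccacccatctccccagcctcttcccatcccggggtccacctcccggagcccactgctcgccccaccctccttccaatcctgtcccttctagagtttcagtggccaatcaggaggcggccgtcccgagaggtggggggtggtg
Fabp1: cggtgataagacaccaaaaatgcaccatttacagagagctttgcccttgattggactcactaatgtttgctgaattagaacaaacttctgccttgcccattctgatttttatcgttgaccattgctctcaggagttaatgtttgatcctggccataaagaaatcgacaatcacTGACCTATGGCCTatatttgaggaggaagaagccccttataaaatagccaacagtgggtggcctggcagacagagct

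Across the 40 genes tested, untreated high-difference grafts mostly lay below low-difference grafts. The difference was below 0 for 32 genes and above 0 for 8, with a median of -0.46 against 0.07 over all genes tested. In 16 of the 40 genes both high-difference arrays lay below both low-difference arrays, against 23.0% of all genes, and in 6 of the 40 both lay above, against 33.5% of all genes. At an unadjusted p under 0.05 there were 5 of the 40 genes, namely Cd36, Scp2, Acat1, Amacr and the dim gene Fabp1, against 14.7% of all genes, so single genes stood out no more often than genes at large, and the smallest adjusted p in limma was 0.31. The median ran from -0.54 to -0.43 over the processing alternatives and from -0.7 to -0.17 when single arrays were left out. Without the first high-difference array 31 genes lay lower without overlap (34.5% of all genes), without the second 18 (34.1%), and without the second low-difference array 31 (36.6%). Among the 37 genes well above background on all 8 arrays, which leaves out Fabp1, Pdk4 and Pex5, 30 lay below 0 and 7 above, with a median of -0.49. Without overlap, 15 lay lower and 5 higher, and 4 reached an unadjusted p under 0.05 in limma. Of all 20323 genes under this filter, 4274 lay lower and 7415 higher without overlap. An unadjusted p under 0.05 in limma was reached by 3185 of them. In bulk tissue, fewer cells of a type and less RNA per cell cannot be told apart.

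**Figure D1:**
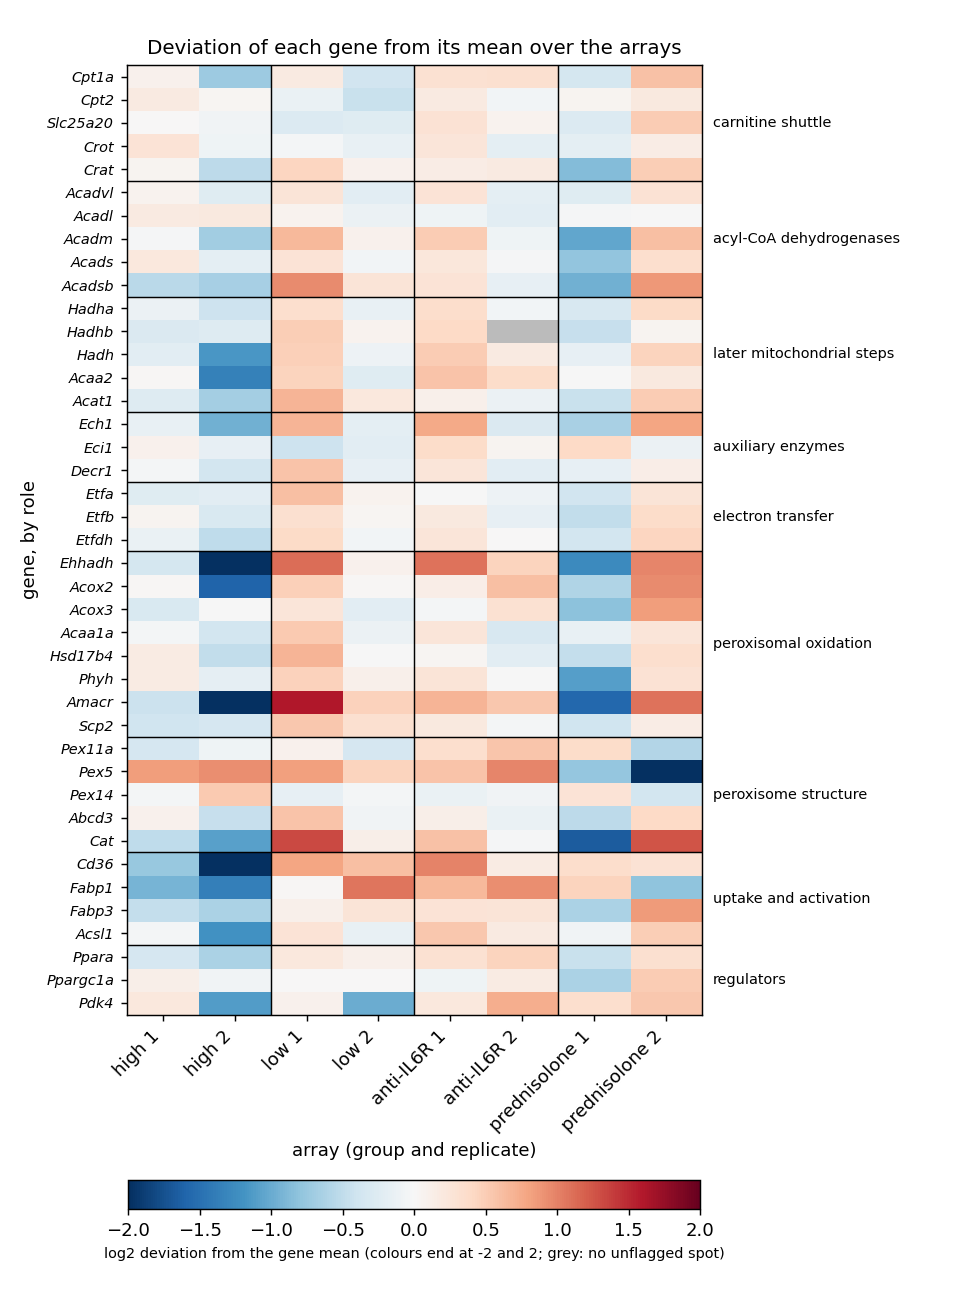
Heat map of the 41 genes (vertical axis, by role) on the 8 arrays (horizontal axis, by group and replicate), coloured by the log2 deviation from the gene's mean over the arrays, with red above and blue below it and a grey cell for the spot of Hadhb that was flagged. The second high-difference array holds the lowest value of 19 genes and the first prednisolone array that of 13, while the second prednisolone array holds the highest value of 14 and the first low-difference array that of 13.

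The heat map of deviations shows that the arrays of a group often differed as much as the groups did. For the 40 tested genes the median deviation was -0.03 and -0.48 in high-difference grafts, against 0.41 and -0.04 in low-difference grafts. It was 0.27 on the first anti-IL6R array and close to 0 on the second, whereas the prednisolone arrays lay apart at -0.39 and 0.37. The range of a gene over the 8 arrays had a median of 1.25 log2 units, from 0.41 in Acadl to 4.78 in Pex5.

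The 4 genes of uptake and activation of fatty acids had lower means in high-difference than in low-difference grafts, and Fabp1 was not well above background there. The median of the other 3 was -0.73, and -1.21 with Fabp1. Cd36, a membrane protein that takes up long-chain fatty acids, was at -2.28 and -3.92 in high-difference grafts, -0.72 and -0.92 in low-difference grafts, -0.53 and -1.36 with anti-IL6R and -1.17 and -1.23 with prednisolone. Both untreated high-difference arrays lay below the 6 others. Of these, the anti-IL6R arrays held the highest and the lowest value, and both prednisolone arrays lay below both low-difference arrays. High-difference grafts differed from low-difference grafts by -2.28 ± 0.54 (log2, moderated SE; 4.86-fold lower), with an adjusted p of 0.31 in limma. The difference was 2.16 ± 0.54 for anti-IL6R minus high (4.46-fold higher, adjusted p = 0.2 in limma) and 1.9 ± 0.54 for prednisolone minus high (3.74-fold higher, adjusted p = 0.35 in limma). These comparisons share the high-difference arrays, of which the second was the lower by far; with single arrays left out the high minus low difference of Cd36 ran from -3.1 to -1.46, and background correction by normexp gave -1.66.

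Replicates of the other 3 genes of uptake and activation differed in how close they lay. Fabp3, a fatty acid binding protein of heart and other tissues that carries fatty acids through the cytosol, was at 2.43 and 2.27 in high-difference grafts, 3.0 and 3.16 in low-difference grafts, 3.17 and 3.16 with anti-IL6R and 2.26 and 3.75 with prednisolone. The untreated groups did not overlap (-0.73 ± 0.45, adjusted p = 0.45 in limma), and the prednisolone arrays spanned the range of all others. Acsl1, which activates long-chain fatty acids to their CoA esters, was at 4.2 and 3.03 in high-difference grafts, 4.5 and 4.08 in low-difference grafts, 4.77 and 4.41 with anti-IL6R and 4.16 and 4.72 with prednisolone. Only its second high-difference array lay apart, so the untreated groups overlapped, while anti-IL6R lay above high difference without overlap (0.98 ± 0.43, adjusted p = 0.3 in limma). Fabp1, the liver-type fatty acid binding protein, was dim: its probe was not well above background on either high-difference array (-7.14 and -7.57), against -6.18 and -5.14 in low-difference grafts, -5.55 and -5.28 with anti-IL6R and -5.76 and -7.0 with prednisolone. For anti-IL6R over high difference its fold is a bound, at least 1.03-fold higher, set against the dimmest signals that were well above background (adjusted p = 0.2 in limma). No fold is given for the comparison with low difference, where the bound is under 1, and with normexp its difference was 0.0 in high minus low and -0.18 in anti-IL6R minus high.

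**Figure D2:**
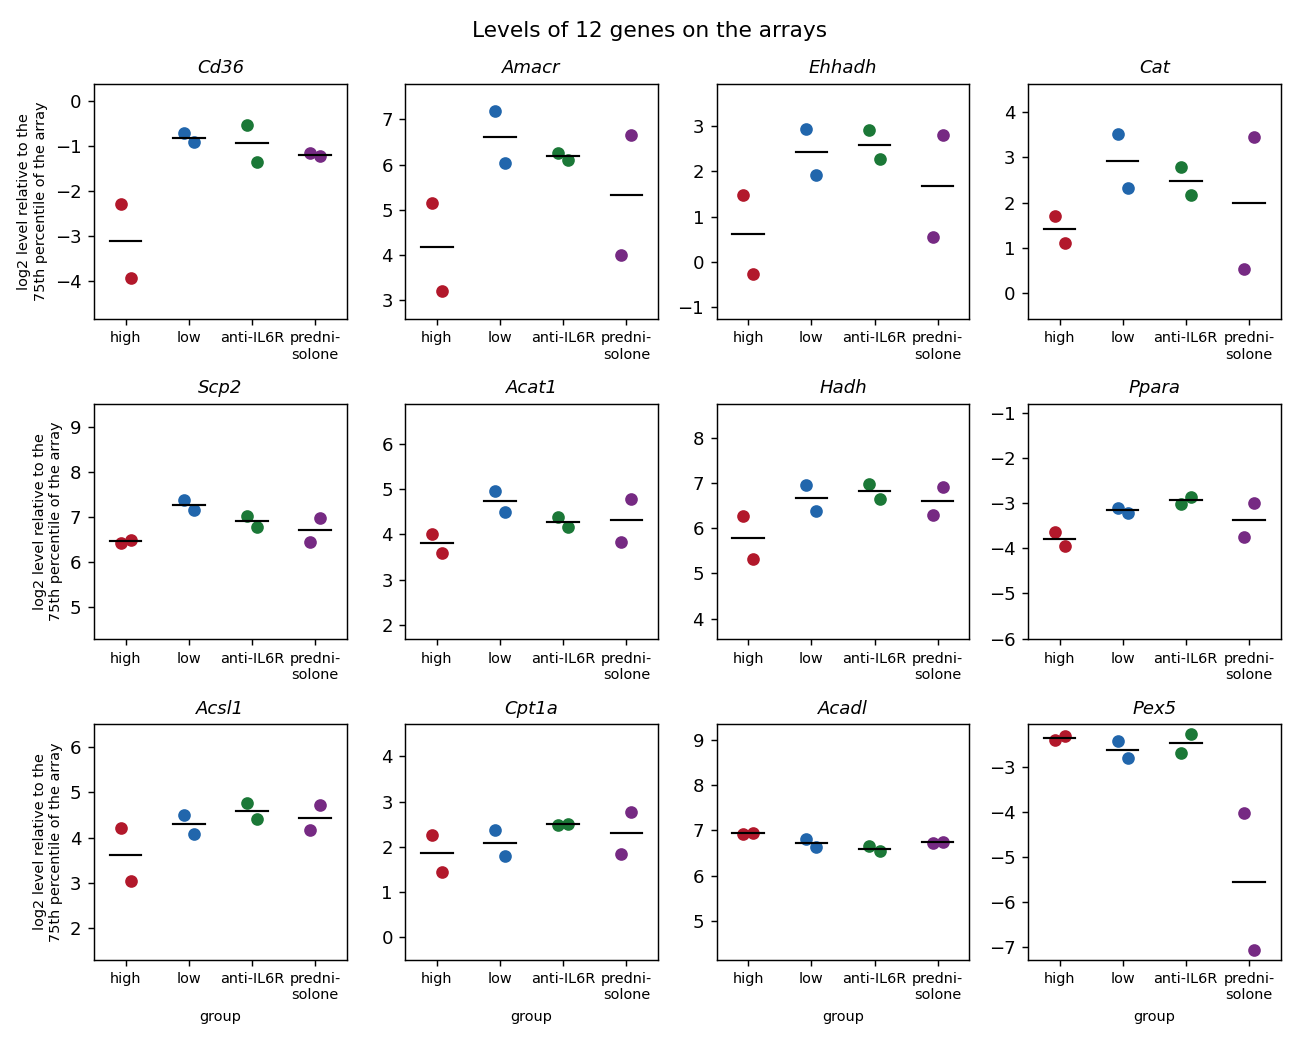
Levels of single genes (log2 relative to the 75th percentile of the array, vertical axis, of the same span in every panel) in the 4 groups (horizontal axis), with a point per array and a bar at the group mean. The high-difference points of Cd36, Scp2, Acat1 and Ppara lie below both low-difference points, those of Acadl above them, and Pex5 is low in the prednisolone group alone.

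The genes of the carnitine shuttle did not share this direction, with a median difference of 0.18 for its 5 genes in high minus low. Cpt1a, which couples long-chain fatty acids to carnitine at the outer mitochondrial membrane and sets the pace of their entry, was at 2.26 and 1.45 in high-difference grafts, 2.36 and 1.79 in low-difference grafts, 2.49 and 2.5 with anti-IL6R and 1.83 and 2.76 with prednisolone. The untreated groups overlapped (-0.22 ± 0.41, adjusted p = 0.79 in limma), and both anti-IL6R arrays lay above both high-difference arrays (0.65 ± 0.41, adjusted p = 0.43 in limma). Cpt2, which returns the acyl group to CoA inside the mitochondrion, was at 1.71 and 1.56 in high-difference grafts, 1.39 and 1.08 in low-difference grafts, 1.71 and 1.48 with anti-IL6R and 1.58 and 1.72 with prednisolone. It was the gene with the largest positive difference in high minus low (0.4 ± 0.2, 1.32-fold higher, adjusted p = 0.38 in limma), and the low-difference arrays lay below all 6 others. Slc25a20, the translocase of the inner membrane, was likewise a little higher in high-difference grafts without overlap (0.22 ± 0.28), and Crot, a peroxisomal carnitine acyltransferase, differed by 0.18 ± 0.24 with overlap. Crat, the carnitine acetyltransferase, had the opposite sign (-0.49 ± 0.45) without overlap. None of these 5 differences reached an unadjusted p under 0.05 in limma.

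The acyl-CoA dehydrogenases, which open each mitochondrial round and divide the chain lengths among them, differed little for the longer chains. Acadl, for long chains, was the steadiest gene of the 41, at 6.93 and 6.95 in high-difference grafts, 6.82 and 6.63 in low-difference grafts, 6.66 and 6.54 with anti-IL6R and 6.73 and 6.74 with prednisolone. It lay above low difference without overlap (0.21 ± 0.17, adjusted p = 0.55 in limma), and anti-IL6R lay below high difference (-0.34 ± 0.17, adjusted p = 0.34 in limma), a direction opposite to that of most of the genes. Acadvl, for very long chains, was at 3.94 and 3.62 in high-difference grafts, 4.12 and 3.66 in low-difference grafts, 4.14 and 3.67 with anti-IL6R and 3.63 and 4.15 with prednisolone, and all 4 groups overlapped. Acadm, for medium chains, was at 6.09 and 5.43 in high-difference grafts, 6.77 and 6.21 in low-difference grafts, 6.62 and 6.03 with anti-IL6R and 5.08 and 6.72 with prednisolone. Its untreated groups did not overlap (-0.73 ± 0.57, 1.66-fold lower, adjusted p = 0.53 in limma), and its prednisolone arrays held the lowest value of the 8 and one of the highest. Acads, for short chains, overlapped between the untreated groups (-0.1 ± 0.39), while Acadsb, which acts on short branched chains from isoleucine, lay lower in high-difference grafts without overlap (-1.2 ± 0.58, 2.29-fold lower, adjusted p = 0.37 in limma).

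The later mitochondrial steps lay lower in high-difference grafts for all 4 genes tested, with a median of -0.82 that ran from -1.24 to -0.31 when single arrays were left out. Hadha, the alpha subunit of the trifunctional protein that hydrates and oxidises long chains, was at 4.99 and 4.7 in high-difference grafts, 5.45 and 4.96 in low-difference grafts, 5.47 and 5.06 with anti-IL6R and 4.79 and 5.49 with prednisolone. Anti-IL6R lay above high difference without overlap (0.42 ± 0.32, adjusted p = 0.5 in limma), and the untreated groups overlapped (-0.36 ± 0.32). Its untested partner Hadhb, the beta subunit, was at 1.9 and 1.93 in high-difference grafts, 2.68 and 2.27 in low-difference grafts, 2.59 on the anti-IL6R array measured and 1.73 and 2.25 with prednisolone, so its untreated groups did not overlap. Acat1, the thiolase that also handles ketone bodies and isoleucine breakdown, was at 4.02 and 3.6 in high-difference grafts, 4.97 and 4.5 in low-difference grafts, 4.39 and 4.16 with anti-IL6R and 3.84 and 4.79 with prednisolone. High difference lay below low difference without overlap (-0.93 ± 0.36, 1.9-fold lower, adjusted p = 0.33 in limma), and anti-IL6R lay between the untreated groups. Hadh, the short-chain hydroxyacyl-CoA dehydrogenase, was at 6.26 and 5.31 in high-difference grafts, 6.95 and 6.37 in low-difference grafts, 6.98 and 6.65 with anti-IL6R and 6.3 and 6.92 with prednisolone. Every other array lay above both high-difference arrays, by 1.03 ± 0.4 in the mean for anti-IL6R (2.04-fold higher, adjusted p = 0.27 in limma) and 0.82 ± 0.4 for prednisolone (1.77-fold higher, adjusted p = 0.46 in limma). Acaa2, the mitochondrial thiolase of the last step, overlapped between the untreated groups (-0.76 ± 0.46) and differed by 1.13 ± 0.46 in anti-IL6R minus high (2.18-fold higher, adjusted p = 0.28 in limma); its second high-difference array, at 1.97, lay far below the 7 others, which began at 3.08.

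Auxiliary enzymes that handle double bonds split in direction. Decr1, the dienoyl-CoA reductase needed for polyunsaturated chains, was at 6.25 and 5.93 in high-difference grafts, 6.86 and 6.13 in low-difference grafts, 6.54 and 6.09 with anti-IL6R and 6.13 and 6.42 with prednisolone, with overlap between all pairs of groups. Ech1, a dienoyl-CoA isomerase, overlapped between the untreated groups as well (-0.79 ± 0.62), and Eci1, the enoyl-CoA isomerase, lay a little higher in high-difference grafts without overlap (0.27 ± 0.25). The electron transfer flavoprotein and its dehydrogenase, which pass electrons to ubiquinone, lay lower in high-difference grafts for all 3 genes. Etfdh was at 2.36 and 1.98 in high-difference grafts, 2.87 and 2.44 in low-difference grafts, 2.73 and 2.5 with anti-IL6R and 2.12 and 2.92 with prednisolone. Its high-difference arrays lay below both low-difference arrays (-0.49 ± 0.33, adjusted p = 0.47 in limma) and below both anti-IL6R arrays (0.45 ± 0.33 for anti-IL6R minus high, adjusted p = 0.49 in limma). Etfa, the alpha subunit, also did not overlap between the untreated groups (-0.55 ± 0.28), and Etfb, the beta subunit, did (-0.31 ± 0.33).

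Peroxisomal oxidation had a negative difference in all 8 of its genes in high minus low, with a median of -0.65 that ran from -0.88 to -0.28 when single arrays were left out. With normexp, Acox3 changed sign (0.16). Amacr, the racemase that prepares branched chains and bile acid intermediates for oxidation, was at 5.15 and 3.2 in high-difference grafts, 7.18 and 6.03 in low-difference grafts, 6.25 and 6.11 with anti-IL6R and 4.0 and 6.66 with prednisolone. High difference lay below low difference without overlap, by the largest amount of the 40 genes (-2.43 ± 0.99, 5.39-fold lower, adjusted p = 0.34 in limma), while the high-difference arrays lay far apart and the first prednisolone array lay between them. For anti-IL6R minus high the difference of Amacr was 2.01 ± 0.99 (4.02-fold higher, adjusted p = 0.34 in limma). Ehhadh, the bifunctional enzyme of the inducible peroxisomal route, was at 1.48 and -0.26 in high-difference grafts, 2.94 and 1.91 in low-difference grafts, 2.91 and 2.27 with anti-IL6R and 0.55 and 2.81 with prednisolone. It differed by -1.82 ± 0.88 in high minus low (3.52-fold lower, adjusted p = 0.37 in limma) and by 1.98 ± 0.88 in anti-IL6R minus high (3.93-fold higher, adjusted p = 0.3 in limma), in both without overlap. Acox2, the oxidase of branched chains and bile acid intermediates, was at -2.03 and -3.65 in high-difference grafts, -1.58 and -2.02 in low-difference grafts, -1.91 and -1.45 with anti-IL6R and -2.65 and -1.1 with prednisolone. Its first high-difference array was nearly level with the lower of the low-difference arrays, so the separation of these groups (-1.04 ± 0.67, adjusted p = 0.46 in limma) rests on the second. Scp2, the sterol carrier protein whose longer form is a peroxisomal thiolase, was at 6.43 and 6.5 in high-difference grafts, 7.37 and 7.15 in low-difference grafts, 7.03 and 6.79 with anti-IL6R and 6.44 and 6.98 with prednisolone. Its difference was smaller than those of Amacr and Ehhadh but its replicates lay closer, with -0.8 ± 0.24 in high minus low (1.74-fold lower, adjusted p = 0.31 in limma). Hsd17b4, the multifunctional enzyme for very long and branched chains, was at 2.83 and 2.17 in high-difference grafts, 3.35 and 2.66 in low-difference grafts, 2.7 and 2.45 with anti-IL6R and 2.19 and 3.0 with prednisolone, and all 4 groups overlapped. Acaa1a, the peroxisomal thiolase (-0.41 ± 0.32), Phyh, which starts the breakdown of phytanic acid (-0.29 ± 0.45), and Acox3, the pristanoyl-CoA oxidase (-0.17 ± 0.52), overlapped between the untreated groups too.

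The structural genes of the peroxisome had a median near 0 in high minus low (-0.08 over 5 genes). Cat, the catalase that removes hydrogen peroxide, stood apart from the others, at 1.7 and 1.11 in high-difference grafts, 3.52 and 2.32 in low-difference grafts, 2.79 and 2.17 with anti-IL6R and 0.54 and 3.45 with prednisolone. High difference lay below low difference and below anti-IL6R without overlap (-1.51 ± 0.93 for high minus low, 2.85-fold lower, adjusted p = 0.45 in limma), and the prednisolone arrays held both the lowest value and the second highest. Pex11a, which takes part in the division of peroxisomes and is a known target of PPAR alpha, was at 1.3 and 1.56 in high-difference grafts, 1.72 and 1.3 in low-difference grafts, 1.97 and 2.19 with anti-IL6R and 2.01 and 1.06 with prednisolone. Its anti-IL6R arrays lay above both untreated groups, by 0.65 ± 0.34 over high difference (adjusted p = 0.36 in limma) and 0.58 ± 0.34 over low difference (adjusted p = 1.0 in limma). Abcd3, an ATP-binding transporter of the peroxisomal membrane, overlapped between the untreated groups (-0.44 ± 0.39).

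The import machinery of the peroxisome held the gene with the widest range. Pex5, the receptor that carries proteins into the peroxisome, was at -2.42 and -2.33 in high-difference grafts, -2.44 and -2.82 in low-difference grafts, -2.69 and -2.28 with anti-IL6R and -4.03 and -7.06 with prednisolone. The 6 arrays without prednisolone lay between -2.82 and -2.28, and both prednisolone arrays lay below them; the second of these was not well above background. Prednisolone minus high was -3.17 ± 0.88 (adjusted p = 0.34 in limma) and prednisolone minus low was -2.91 ± 0.88 (adjusted p = 0.74 in limma). Pex5 passed the threshold only when the first prednisolone array was left out (adjusted p = 0.003 in limma for prednisolone minus high), where the array that remained was the one not well above background, so its size of -4.69 is not a measured level. With normexp the difference over both arrays was -1.59. Its partner at the membrane, Pex14, was at 3.56 and 4.11 in high-difference grafts, 3.43 and 3.56 in low-difference grafts, 3.46 and 3.53 with anti-IL6R and 3.86 and 3.23 with prednisolone, with the prednisolone arrays on either side of the low-difference arrays.

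Of the regulators, Ppara separated the untreated groups and its coactivator did not. Ppara, the receptor that switches on fatty acid oxidation, was at -3.65 and -3.95 in high-difference grafts, -3.1 and -3.21 in low-difference grafts, -3.01 and -2.87 with anti-IL6R and -3.76 and -2.99 with prednisolone. Its high-difference arrays lay below both low-difference arrays (-0.64 ± 0.28, 1.56-fold lower, adjusted p = 0.35 in limma) and below both anti-IL6R arrays (0.86 ± 0.28 for anti-IL6R minus high, 1.82-fold higher, adjusted p = 0.23 in limma). Normexp kept both signs but reduced the sizes to -0.24 and 0.31. Ppargc1a, which encodes PGC-1 alpha, was at -1.94 and -2.12 in high-difference grafts, -2.04 on both low-difference arrays, -2.13 and -1.89 with anti-IL6R and -2.69 and -1.55 with prednisolone, and differed by 0.01 ± 0.37 in high minus low. Pdk4, a kinase that restrains the use of glucose when fatty acids are burnt, was at -4.87 and -6.2 in high-difference grafts, -4.99 and -6.07 in low-difference grafts, -4.87 and -4.35 with anti-IL6R and -4.75 and -4.55 with prednisolone. The lower array of each untreated group was not well above background, and the untreated groups did not differ in the mean.

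**Figure D3:**
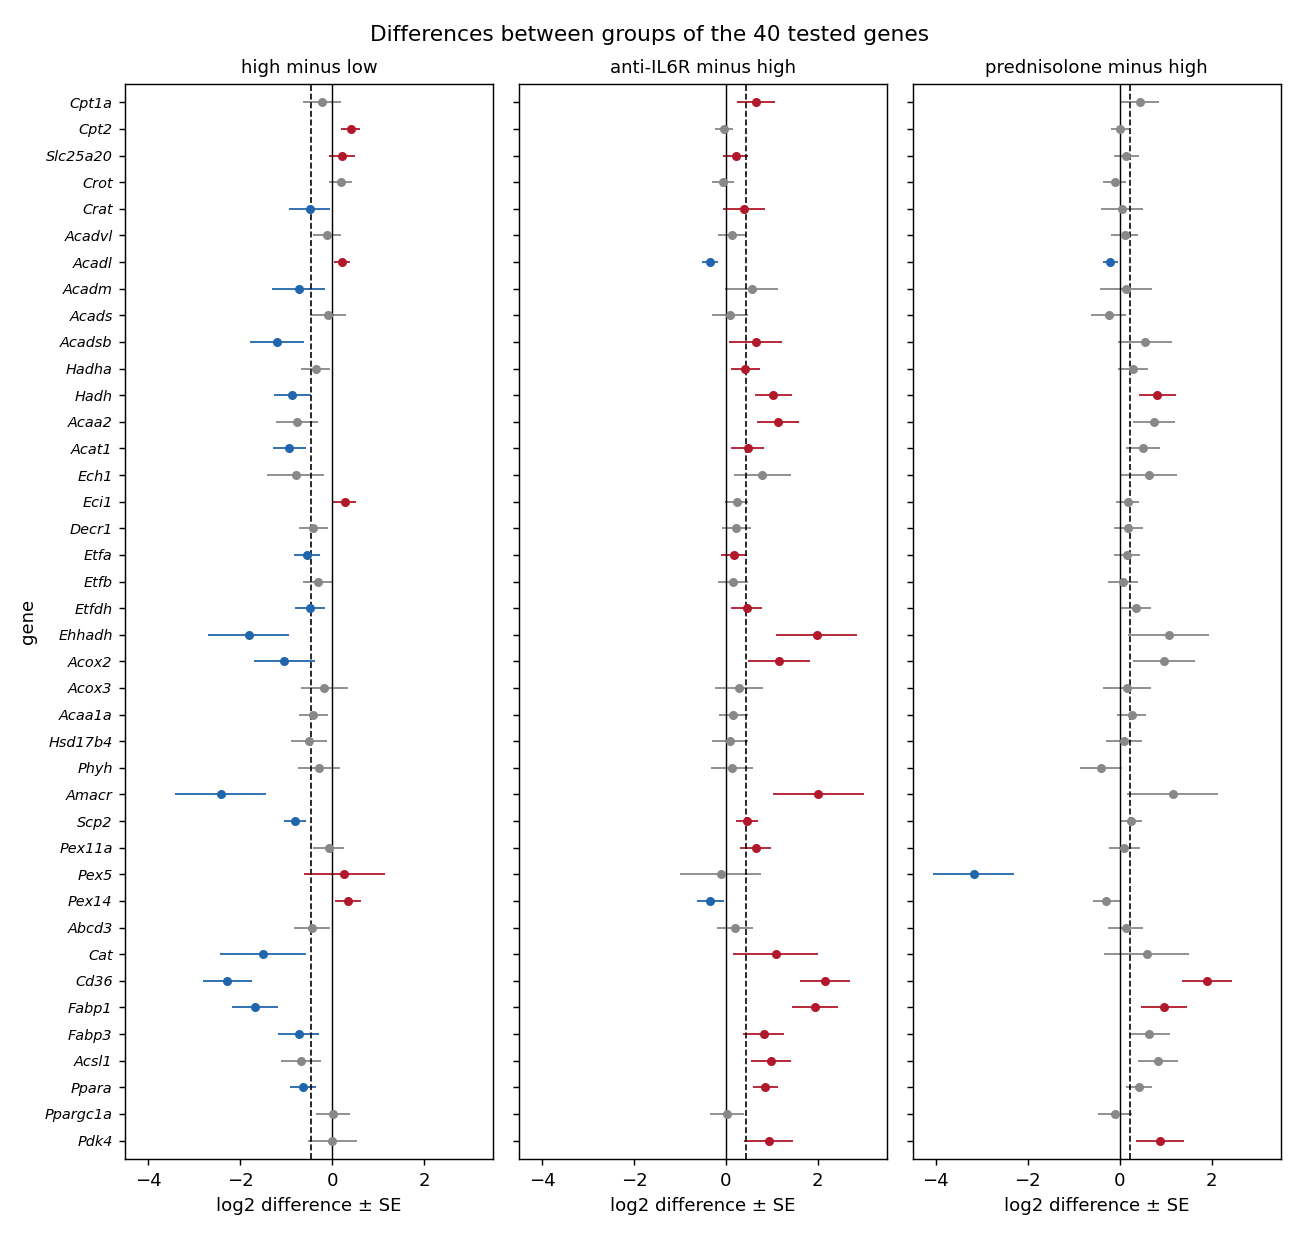
Log2 difference with its moderated SE (horizontal axis) for the 40 genes tested (vertical axis, by role) in 3 comparisons; red and blue points are genes whose arrays lie higher or lower without overlap, grey points overlap, and the dashed line is the median of the 40 genes. The medians are -0.46, 0.43 and 0.22 from left to right, and the right-hand panels share their high-difference arrays with the left one.

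Anti-IL6R grafts lay above untreated high-difference grafts for most of the genes. The difference was above 0 for 35 of the 40 genes and below 0 for 5, with a median of 0.43 against -0.09 over all genes. Without overlap, 22 of the 40 were higher, against 23.5% of all genes, and 2, Acadl and Pex14, were lower, against 36.3% of all genes. The 22 include the dim genes Fabp1 and Pdk4. Pdk4 was tested only because both arrays of each treated group were well above background. Its first anti-IL6R array and its first high-difference array were both at -4.87. An unadjusted p under 0.05 was reached by 5 genes, against 17.7% of all genes; they were Cd36, Ppara, Hadh, Acaa2 and Fabp1, the last of which was tested only because both anti-IL6R arrays were well above background. Among the 37 genes well above background on all arrays, 33 lay above 0, 20 were higher and 2 lower without overlap, and the median was 0.42. Of all 20323 genes under this filter, 4099 were higher and 8070 lower without overlap. The median ran from 0.28 to 0.58 over the processing alternatives and from 0.25 to 0.55 without single arrays. The count of genes higher without overlap was 33 without the first high-difference array (35.0% of all genes) 23 without the second (33.4%) and 32 without the second anti-IL6R array (33.6%). By role, the median difference was 0.98 for uptake and activation without Fabp1, 0.75 for the later mitochondrial steps and 0.37 for peroxisomal oxidation, against 0.13 for the acyl-CoA dehydrogenases and 0.21 for the carnitine shuttle. For the 3 regulators it was 0.86, and 0.44 without Pdk4. Auxiliary enzymes had 0.24, electron transfer 0.17 and peroxisome structure 0.19, or 0.42 without Pex5.

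Prednisolone gave no such separation from untreated high difference. The difference was above 0 for 33 of the 40 genes with a median of 0.22, against -0.08 over all genes, but only 4 genes were higher without overlap (13.9% of all genes) and 2 lower (25.0% of all genes). Of the higher genes, Cd36 and Hadh were well above background on all arrays, whereas Fabp1 on both high-difference arrays and Pdk4 on the second of them were not. Fabp1 was tested only through the anti-IL6R group and Pdk4 only through the treated groups, where both arrays were well above background. Of the lower genes, Acadl was well above background throughout and Pex5 was not on the second prednisolone array. An unadjusted p under 0.05 was reached by Cd36 and Pex5, 2 of the 40, against 11.8% of all genes. The prednisolone arrays stood on opposite sides: the median difference was 0.62 without the first and -0.08 without the second, and the count of genes higher without overlap was 34 and 6 (36.7% and 26.6% of all genes). Without the first high-difference array that count was 21 (26.5% of all genes).

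The treatments were also set against each other and against low difference. Anti-IL6R minus prednisolone had a median of 0.14 over the 40 genes, 1 of them at an unadjusted p under 0.05 (Pex5, 3.06 ± 0.88, adjusted p = 1.0 in limma; 3.4% of all genes), and turned to -0.24 without the first prednisolone array. Anti-IL6R minus low had a median of 0.01 with 20 genes above 0 and 20 below, and 0 genes at an unadjusted p under 0.05 in limma (3.08% of all genes). With the antibody Cd36 differed from low difference by -0.12 ± 0.54, and Scp2 lay below low difference without overlap (-0.35 ± 0.24). Prednisolone minus low had a median of -0.16, with 10 genes above 0 and 30 below, 1 of them (Pex5) at an unadjusted p under 0.05 (6.01% of all genes), and the median ran from -0.62 to 0.22 when single arrays were left out. These comparisons share their groups with those above and are not independent of them. Of the 11 genes with over 1 tested probe, 7 had probes that disagreed in direction in prednisolone minus low. The number was 2 in anti-IL6R minus low and 2 in anti-IL6R minus prednisolone. It was 0 in high minus low, anti-IL6R minus high and prednisolone minus high.

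Other genes of the same pathways also lay mostly below 0 in high minus low. Of 95 further genes listed, 81 were tested; 57 lay below 0, against 44.0% of all genes, and 24 above, with a median of -0.3, and 0 had an adjusted p under 0.05 in limma (8 at an unadjusted p under 0.05, or 9.88%, which is below the 14.7% of all genes). Decr2, the peroxisomal dienoyl-CoA reductase (-1.65 ± 0.49), Pex7, the import receptor for the second targeting signal (-0.9 ± 0.31), and Slc22a5, the carnitine transporter of the plasma membrane (-0.89 ± 0.34), lay lower without overlap at adjusted p of 0.31 to 0.32 in limma. Higher without overlap were Angptl4, an inhibitor of lipoprotein lipase and a PPAR target, at 2.6 and 3.13 in high-difference and 0.48 and 0.67 in low-difference grafts (2.29 ± 0.77), Fabp5, another fatty acid binding protein (0.69 ± 0.22), and Acsl5, an acyl-CoA synthetase (0.65 ± 0.19), each at an adjusted p of 0.31 in limma. Cyp4a1, a fatty acid omega-hydroxylase and a known PPAR alpha target, differed by 0.33 ± 0.42 with overlap. Pparg, the related receptor of fat cells, differed by -0.34 ± 0.25. Esrra and Plin2 were not tested. In anti-IL6R minus high the 81 genes had a median of 0.23, with 57 above 0 and 24 below; Slc22a5 (1.28 ± 0.34, adjusted p = 0.21 in limma) lay higher without overlap and Fabp5 (-0.67 ± 0.22, adjusted p = 0.24 in limma) lower.

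**Figure D4:**
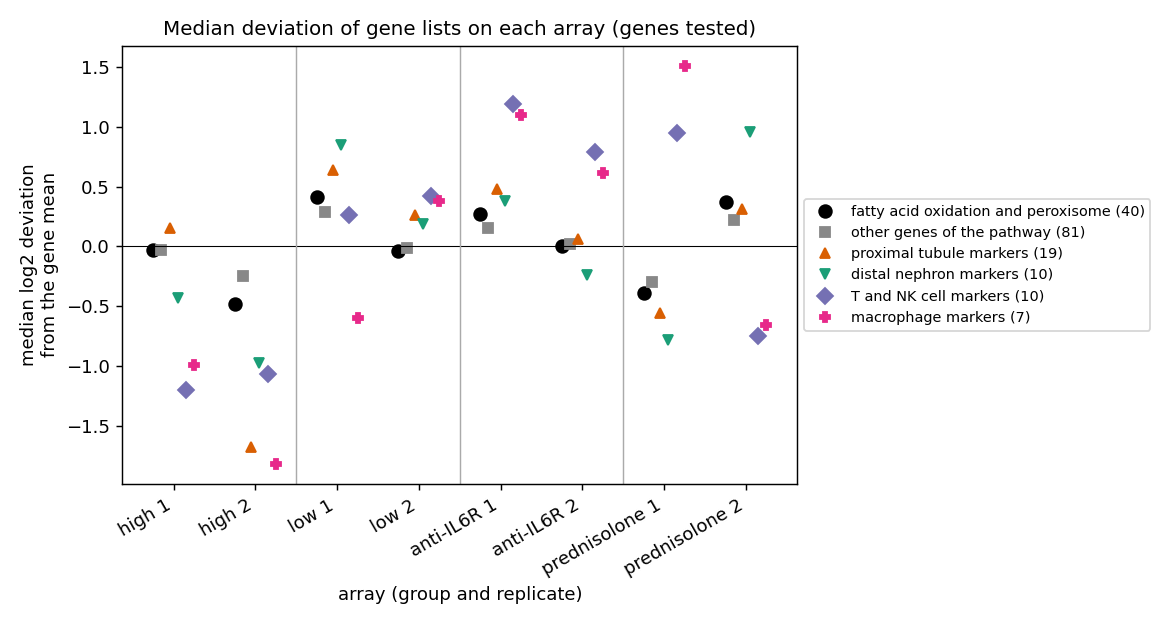
Median log2 deviation from the gene mean (vertical axis) of 6 gene lists on each of the 8 arrays (horizontal axis, by group and replicate), with a point per list and array and the number of genes tested in the legend. The proximal tubule markers reach -1.68 on the second high-difference array, where the fatty acid oxidation and peroxisome genes stand at -0.48.

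Markers of cell types varied over the same arrays. The 19 proximal tubule markers, such as Slc34a1, Slc5a2, Slc22a6 and Slc22a8, had a median deviation of 0.15 and -1.68 in high-difference grafts, 0.64 and 0.26 in low-difference grafts, 0.48 and 0.06 with anti-IL6R and -0.56 and 0.31 with prednisolone. On the second high-difference and the first prednisolone array, both these markers and the fatty acid genes were low. Their median difference in high minus low was -1.37, but -0.34 without the second high-difference array, and in anti-IL6R minus high it was 1.14, but 0.36 without that array. The summed linear level of the 19, in multiples of the 75th percentile signal, ran from 742 to 1330 in high-difference, 1250 to 1710 in low-difference, 1210 to 1300 in anti-IL6R and 840 to 1360 in prednisolone grafts. The 10 distal nephron markers, such as Slc12a1, Umod, Slc12a3 and Aqp2, had a median of -1.25 in high minus low, with sums of 477 to 483, 638 to 963, 448 to 689 and 331 to 750 in the same order of groups. The part of these markers in the values of the fatty acid genes was not tested.

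Leukocyte and vessel markers lay lower in untreated high-difference grafts as well. All 10 T and NK cell markers, such as Cd3d, Cd3e, Cd3g and Cd2, lay below 0 in high minus low (median -1.51), with 3 of the 10 well above background on all arrays and sums of 0.591 to 0.641 in high-difference, 1.72 to 1.74 in low-difference, 1.85 to 2.44 in anti-IL6R and 0.774 to 2.02 in prednisolone grafts. Macrophage markers, such as Csf1r, Cd68, Cd14 and Adgre1, were tested for 7 of 8 genes (all but Cd163) and had a median of -1.63, with sums of 5.75 to 6.52, 12.5 to 20.2, 18.9 to 27.2 and 11.4 to 33.9 in the same order. Of the 7 macrophage markers 6 lay below 0, and Cd14 lay above it (0.39 ± 0.62, with overlap). On all arrays, 5 of the 7 were well above background. Endothelial markers, such as Pecam1, Cdh5, Tie1 and Kdr, had a median of -0.78 over 8 genes, with sums of 34.0 to 46.6, 58.0 to 65.9, 59.0 to 68.3 and 58.9 to 65.2. Most of each sum is Kdr alone, at 5.44 and 5.01 in high-difference and 5.77 and 5.94 in low-difference grafts. On all arrays, 6 of the 8 were well above background. Cd36 is also made by macrophages and endothelium, so its values are given beside both lists, whose part in it was not tested. Of tissues that burn or store fatty acids, fat was covered by 6 of 8 markers (all but Lep and Plin1; median -0.62), with sums of 4.2 to 4.59, 5.8 to 9.5, 5.67 to 6.96 and 3.93 to 8.04. Of the 6 fat markers 5 lay below 0 in high minus low, 2 of them without overlap, and Adipoq hardly differed (-0.07 ± 0.24). Retn lay above 0 without overlap (0.94 ± 0.36). Liver was covered by 6 of 8 (all but Tat and Tdo2; median -0.66), with sums of 3.24 to 3.42, 5.98 to 11.9, 4.14 to 4.33 and 3.64 to 5.16. These sums come mostly from Apoc3 and Cyp2c11. Cyp2c11 was at -2.3 and -3.26 in high-difference and 2.77 and 0.71 in low-difference grafts. Alb and Serpina1 overlapped between the untreated groups, and the other 4 lay lower without overlap. Of the 6 liver markers, 4 were well above background on all arrays. Skeletal and heart muscle had 4 of 8 tested (Ckm, Myh7, Actn2 and Myl1 were not; median 0.22), with sums between 0.536 and 0.742 over all arrays. Of these 4, 2 were well above background on all arrays. Red cell markers had 4 of 6 tested, and 1 of these, Slc4a1, is also a distal nephron marker. The other 3, Hbb, Alas2 and Ahsp, had a median of -0.67 and sums of 1.53 to 1.79, 2.18 to 3.29, 1.11 to 1.39 and 1.0 to 4.6, with the lowest sum on the second and the highest on the first prednisolone array. The part of these lists was not tested either.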

How the data were processed

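RNA was labelled with Cy3 from 1 µg of total RNA for 1-colour Agilent arrays, per the labels' protocols. The deposited files hold, per the file headers, the spot intensity that Feature Extraction 9.5.1.1 had background-subtracted, with flags for outlier spots and for signal well above background. The value table that the authors deposited matched these intensities times a factor per array, within 0.01 log2 units, for probes with a single spot and apart from 1338 zeros. Here control and outlier spots were left out, log2 was taken and each array's 75th percentile subtracted. Of 41012 probes, 765 lacked an unflagged spot on some array, and 11562 were not well above background on both arrays of any group. The other 28685 stood for 24460 genes, each by its brightest probe. A single model of the 8 arrays was fitted by limma 3.58.1 under R 4.3.3 with eBayes (4 residual and 2.37 prior degrees of freedom), with p-values adjusted by Benjamini-Hochberg over all genes at 0.05. For 2 arrays against 2 the smallest exact permutation p is 0.33, so none was run. P-values rest on the spread between replicates, pooled over the 4 groups and moderated by the prior, and the number of arrays limits the precision. An error is the moderated standard error. "Without overlap" means that both arrays of a group lie beyond both of the other. All 41 genes could be named; those given per array were a list of 19 plus the 3 each way with the smallest p in 4 comparisons, and of other pathway genes the 3 each way with the smallest p in high minus low and 7 listed ones; list examples are the first 4 of each list. Some genes that this rule took are not reported here. The genes, lists and tests were chosen with earlier results of these data known. The counts without overlap under the alternatives were added after seeing the data. The procedure was tested on simulated data. No column of values was left unmapped (0 columns).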

Additional observations from a re-analysis of the deposited data

How the results depend on the processing

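In the fit as reported 0 genes passed in every comparison. Quantile normalization gave 3 genes in high minus low, 7 in anti-IL6R minus high, 4 in prednisolone minus high, 2 in anti-IL6R minus prednisolone and 4 in anti-IL6R minus low, and array median scaling gave 1 in high minus low and 1 in anti-IL6R minus high. Leaving out single arrays gave 0 to 39 genes in high minus low, 0 to 169 in anti-IL6R minus high, 0 to 224 in prednisolone minus high, 0 to 130 in anti-IL6R minus prednisolone, 0 to 8 in anti-IL6R minus low and 0 to 151 in prednisolone minus low; the highest count came without the first high-difference array in high minus low and without the first prednisolone array in the others, where leaving out the second gave as many in anti-IL6R minus high and anti-IL6R minus low. Where a compared group lost an array, the lone array left is assumed to vary like the other groups. All comparisons share a single estimate of each gene's spread. Leaving out a prednisolone array therefore also changes the estimate used for comparisons whose own groups keep both arrays. Of the 40 fatty acid genes 0 to 1 passed in the prednisolone comparisons, and the gene was Pex5, by its array not well above background. Their median ran from -0.7 to -0.17 in high minus low, 0.25 to 0.55 in anti-IL6R minus high, -0.08 to 0.62 in prednisolone minus high, -0.24 to 0.49 in anti-IL6R minus prednisolone, -0.2 to 0.16 in anti-IL6R minus low and -0.62 to 0.22 in prednisolone minus low.

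Without overlap, when single arrays were left out, 6 to 9 of the 40 lay higher and 16 to 31 lower in high minus low. The shares over all genes were 33.5% to 48.3% higher and 23.0% to 36.6% lower. In anti-IL6R minus high 22 to 33 lay higher and 2 to 5 lower. Over all genes 23.5% to 35.0% lay higher and 36.3% to 50.1% lower. In prednisolone minus high 4 to 34 lay higher and 2 to 16 lower. There the shares over all genes were 13.9% to 36.7% higher and 25.0% to 46.0% lower. In the order higher in high minus low, lower in anti-IL6R minus high, higher and lower in prednisolone minus high, quantile normalization gave 3, 0, 7 and 1. In the same order it gave 7793, 8163, 3933 and 5222 of all 24460 genes. In prednisolone minus high, array median scaling and the mean over probes gave 7 higher, and the filter for all arrays gave 2 higher and 1 lower. Of all 24460 genes, array median scaling gave 3602 higher and the mean over probes 3371. The filter gave 2539 higher and 5207 lower of 20323 genes. Normexp moved the median of all genes in anti-IL6R minus high from -0.09 to -0.22, and the cause was not tested. Of the values of single genes under the alternatives, 2606 kept their sign and their side of the threshold, 181 changed sign without being called, and 3 passed the threshold, all of Pex5. Replicate numbers did not pair the samples (correlations of deviations from -0.35 to 0.37), and with the replicate block 0 genes passed in each comparison, with 2865 instead of 3588 genes at an unadjusted p under 0.05 in limma in high minus low. The slide as a block was not run, since each slide holds 2 whole groups. Dim signals limit Fabp1, Pdk4 and Pex5.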
